A study of Caenorhabditis elegans with 12 samples.

Results

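The Caenorhabditis elegans genome carries 9 genes named lbp-1 to lbp-9, for lipid-binding protein, and their transcripts were followed in 12 whole-body RNA-seq libraries. The members were taken by symbol from the Ensembl annotation of the WBcel235 genome. They are 9 of 46934 gene entries in the files, and all 9 had enough counts to be among the 16259 genes tested. The libraries came from prefertile adult hermaphrodites of 4 genotypes, with 3 independent harvests of each, grown at 20 °C on OP50, the standard Escherichia coli food strain. Wild type was strain N2, the dis-3(L75Q) single mutant was VC40130, the eat-2(ad1116) single mutant was IJ173, and the double mutant eat-2(ad1116); dis-3(L75Q) was IJ2290. DIS-3 is one of the ribonucleases of the exosome, which trims and degrades RNA. EAT-2 is a pharyngeal acetylcholine receptor subunit whose loss slows feeding, so eat-2 mutants are used as a genetic model of dietary restriction. Each genotype was represented by 1 strain, so the effect of an allele cannot be told apart from that of other differences between the strains. An effect named after an allele below is a difference between strains.

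LBP proteins belong to the family of small fatty acid-binding proteins, which fold into a barrel that holds a lipid in its core and carries it through the aqueous space of a cell or between cells. LBP-1, LBP-2 and LBP-3 begin with a secretion signal, while LBP-5 and LBP-8 act inside cells. LBP-8 carries a lipid messenger from the lysosome to the nucleus, where the receptors NHR-49 and NHR-80 respond. This route acts downstream of the lysosomal lipase LIPL-4 and extends lifespan when it is made overactive. LBP-3 has been placed in the same lipase pathway as a secreted carrier between the gut and neurons, and LBP-5 has been linked to fat storage and to NHR-49.

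Several members lie near one another in the genome. On chromosome X the 3 genes for secreted members lie side by side on the same strand, in the order lbp-3 (3257372 to 3258155), lbp-1 (3259142 to 3259812) and lbp-2 (3260610 to 3261470), with gaps of 986 and 797 bp and no annotated gene between them. On chromosome I, lbp-6 (6728296 to 6729376) and lbp-5 (6731267 to 6732276) lie 1890 bp apart on the minus strand, with 1 protein-coding gene between them. On chromosome V, lbp-7 (13879552 to 13880213) and lbp-8 (13890773 to 13891364) are separated by 10559 bp that hold 4 genes, 3 of them protein-coding. The genes lbp-4 (7820578 to 7821477) and lbp-9 (2068449 to 2069142) stand alone on the same chromosome. The gene lbp-6 overlaps mec-6 on the other strand, and lbp-9 overlaps Y40B10A.9. Whether counting used strand is not given in the sources used here, and reads in these overlaps cannot be assigned with certainty. The overlapping genes were low, at 2.95 ± 0.81 CPM for mec-6 and 11.4 ± 1.1 CPM for Y40B10A.9 (SD, n = 12). CPM here means normalised counts, scaled to the library total after TMM (trimmed mean of M-values) correction.

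The libraries held 31812386 to 32773817 counts, with 18236 to 18851 genes above 0. They differed along developmental stage. Stage was scored in each library as the difference between the mean log2 CPM of 28 molting genes and that of 22 genes of oocytes and the eggshell. The score ran from -3.56 to 0.17 in wild type, from -1.0 to 1.93 in the dis-3 single mutant, from -1.3 to 1.93 in the eat-2 single mutant and from 0.34 to 0.97 in the double mutant. Its mean was -2.02 ± 1.95 (SD, n = 3) in wild type, against 0.78 ± 1.57, 0.84 ± 1.85 and 0.56 ± 0.35 in the same order of mutants, so wild type had the lowest mean although its range overlapped that of each single mutant. Wild type replicate 2 had the highest score of its genotype, while replicate 3 of dis-3(L75Q) and replicate 1 of eat-2(ad1116) had the lowest of theirs. These 3 libraries lay apart, and each lbp test below was also run without them. The libraries kept there scored -2.68 and -3.56 in wild type and 1.42 to 1.93 in the single mutants. Stage and genotype cannot be told apart in those fits. In edgeR's quasi-likelihood test, 0 of the 28 molting genes and 0 of the 22 oocyte genes were called in any comparison of 2 genotypes, with up to 5 and up to 1 at an unadjusted p under 0.05. Against wild type the median log2 difference of the molting genes was nonetheless 1.48 with dis-3(L75Q) alone, 0.82 with eat-2(ad1116) alone and 1.18 with both alleles, with 25, 24 and 26 of the 28 above 0. That of the oocyte genes was -1.17, -1.03 and -0.93, with 0, 1 and 0 of the 22 above 0, while the median of all genes lay between -0.01 and 0.02. Summed intestine markers (9 genes) ran from 3837 to 4039 CPM in wild type and 3926 to 4773 with dis-3(L75Q) alone. They ran from 2752 to 4507 with eat-2(ad1116) alone and 3652 to 3698 with both alleles. Of the 9, 0 were called in comparisons of 2 genotypes (up to 1 at an unadjusted p under 0.05), which called 0.351% to 6.21% of all genes. For the eat-2(ad1116) effect averaged over both dis-3 backgrounds, 0 were called and 2 had an unadjusted p under 0.05. No gene of these lists was at 0 in a whole genotype, and the part of stage or intestine content in the lbp differences was not tested beyond the fits described below. In whole-body RNA, fewer cells of a type and less RNA per cell cannot be told apart.

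The 9 genes spanned a wide range of levels. Per kilobase of exon in wild type, lbp-6 was highest at 1047 ± 136 CPM per kb (SD, n = 3), followed by lbp-9 at 486 ± 92 and lbp-2 at 414 CPM per kb. A middle tier held lbp-5 at 107, lbp-7 with libraries from 91.4 to 109, lbp-3 at 85.5, lbp-4 at 66.1 and lbp-1 at 43.3 CPM per kb. The gene for the lysosomal messenger carrier, lbp-8, lay far below at 3.07 ± 0.33 CPM per kb, which is 341-fold under lbp-6. The 3 highest genes made up 82.8% of the summed level per kb. The wild-type ranges overlapped for the neighbouring ranks lbp-9 and lbp-2, lbp-5 and lbp-7, and lbp-7 and lbp-3, and were separate for the other neighbouring ranks. The first and the last 4 places were the same in all 4 genotypes. The order changed within the 2 pairs lbp-9 with lbp-2 and lbp-5 with lbp-7.

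**Figure D1:**
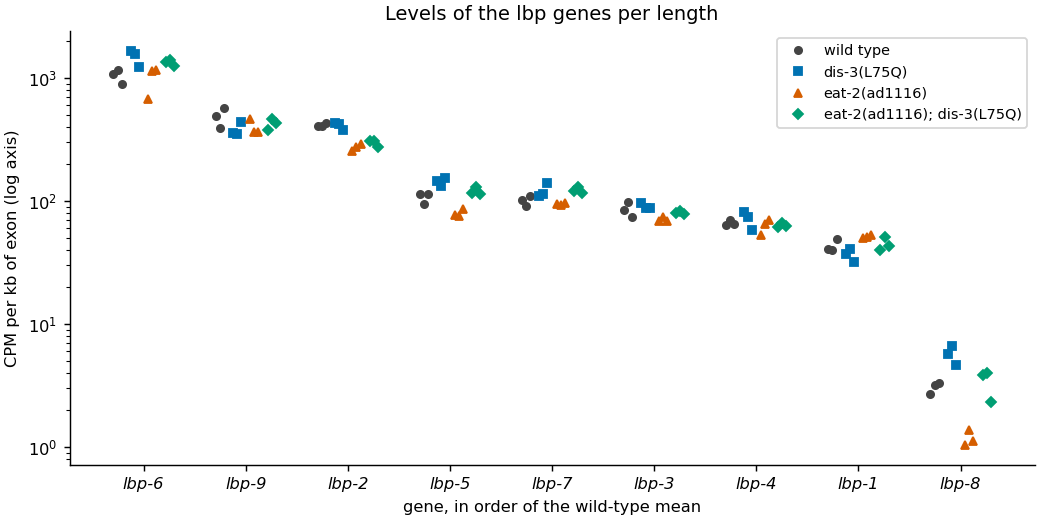
Level of each lbp gene per kilobase of exon (CPM per kb, logarithmic axis) in the 12 libraries, coloured by genotype. The points of lbp-6 lie at the top near 1047 CPM per kb in wild type, those of lbp-8 at the bottom near 3.07, and the spread between genotypes is widest for lbp-8.

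The summed level of the family was 1362 ± 11 CPM in wild type, 1561 ± 113 with dis-3(L75Q) alone, 1152 ± 132 with eat-2(ad1116) alone and 1403 ± 76 with both alleles. The gene lbp-6 alone held 44.5% to 53.8% of the family's summed level per kb on average in the 4 genotypes. The secreted members are described first and the others after them.

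Among the secreted members, lbp-2 fell in both strains that carry eat-2(ad1116). It stood at 309, 308 and 326 CPM in the wild-type libraries and at 326, 322 and 284 with dis-3(L75Q) alone. In eat-2(ad1116) it stood at 194, 209 and 221 CPM, and in the double mutant at 234, 234 and 208. All 6 libraries with eat-2(ad1116) were lower than all 6 libraries without it. The fall was 1.51-fold in eat-2(ad1116) against wild type (log2 -0.59 ± 0.09 SE, edgeR adjusted p = 0.00513), 1.38-fold in the double mutant against dis-3(L75Q) (log2 -0.46 ± 0.09, adjusted p = 0.0315) and 1.4-fold in the double mutant against wild type (log2 -0.48 ± 0.09, adjusted p = 0.0146). Averaged over both dis-3 backgrounds in the same fit, a contrast added after the values were seen, the eat-2 effect on lbp-2 was log2 -0.53 ± 0.06 (adjusted p = 0.000648). The dis-3(L75Q) effect on lbp-2 was not called. It was log2 -0.02 ± 0.09 against wild type (approximate 95% interval -0.19 to 0.16) and 0.11 ± 0.09 against eat-2(ad1116) (interval -0.06 to 0.29).

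The level of lbp-2 was also the steadiest of the family between replicates. Its within-genotype SD was 0.09 on the log2 scale, at the 5.49th percentile of the genes tested. The fall against wild type in the eat-2(ad1116) single mutant was called in all 12 fits that each left out 1 library, with adjusted p up to 0.033, and was lost when only the 6 libraries of the 2 genotypes were fitted (adjusted p = 0.0877). The 2 double mutant comparisons were less stable. Against dis-3(L75Q) lbp-2 was called in 5 of the 12 such fits, and it was lost without any 1 of the 3 double mutant libraries, dis-3(L75Q) replicates 1 and 2, eat-2(ad1116) replicate 2 or wild type replicate 1 (adjusted p up to 0.166). Against wild type it was called in 8 of 12, and lost without double mutant replicate 2 or 3 or wild type replicate 1 or 3 (adjusted p up to 0.0901).

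The upstream neighbour lbp-1 was not called in any comparison with TMM scaling, though its averaged eat-2(ad1116) effect was called as higher without scaling. Its levels were 22.5, 22.2 and 27.4 CPM in wild type, 20.8, 22.5 and 17.7 with dis-3(L75Q) alone, 27.8, 28.3 and 29.2 with eat-2(ad1116) alone, and 22.3, 28.1 and 24.1 with both alleles. The eat-2(ad1116) libraries were all above the wild-type libraries, but the difference did not pass the test (log2 0.24 ± 0.13, adjusted p = 0.264). The third gene of the cluster, lbp-3, stood at 52.8, 61.4 and 45.9 CPM in wild type and at 60.7, 55.2 and 55.1 with dis-3(L75Q) alone. In eat-2(ad1116) it stood at 42.9, 45.8 and 42.9 CPM and in the double mutant at 50.1, 51.3 and 48.7. The highest eat-2(ad1116) library was just below the lowest wild-type library, and lbp-3 did not pass the test (log2 -0.28 ± 0.11, adjusted p = 0.126). Averaged over both dis-3 backgrounds, the eat-2(ad1116) effect on lbp-3 was log2 -0.24 ± 0.07 and was not called (adjusted p = 0.0756). It was called lower in 5 of 21 alternative fits, among them DESeq2 (adjusted p = 0.014, where 15.3% of all genes were called).

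The balance within the chromosome X cluster differed between genotypes. The ratio of lbp-2 to lbp-1 in CPM was 13.7, 13.9 and 11.9 in the wild-type libraries, against 15.7, 14.3 and 16.1 with dis-3(L75Q). It was 6.98, 7.41 and 7.58 in eat-2(ad1116) and 10.5, 8.34 and 8.64 in the double mutant. All 6 libraries with eat-2(ad1116) had lower ratios than all 6 without it, a mean difference of log2 -0.80 or 1.74-fold (-0.85 in the wild-type background and -0.75 in the dis-3 background). An exact two-sided permutation test of library labels within each dis-3 background gave p = 0.005, the smallest that its 400 permutations allow. The ratio was higher with dis-3(L75Q), by log2 0.27 (exact permutation p = 0.005).

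The ratio of lbp-1 to lbp-3 moved the other way. It was 0.461 ± 0.12 in wild type, 0.357 ± 0.045 with dis-3(L75Q) alone, 0.649 ± 0.032 with eat-2(ad1116) alone and 0.496 ± 0.051 with both alleles (SD, n = 3). It was higher with eat-2(ad1116) by log2 0.50 (exact permutation p = 0.005) and lower with dis-3(L75Q), at log2 -0.37 (exact permutation p = 0.015). A ratio does not depend on library scaling, but it shows unequal change and does not say which of the 2 genes moved. Both ratios of the cluster share lbp-1, as denominator in the first and numerator in the second. A change in lbp-1 alone would move them in opposite directions, so their tests are not independent. The 4 pairs of lbp genes nearest each other and 2 alleles gave 8 ratio tests, added after the values were seen. With Benjamini-Hochberg adjustment over the 8 tests, p was 0.01 for both eat-2 differences in the cluster and for lbp-2 to lbp-1 with dis-3(L75Q), and 0.02 for lbp-1 to lbp-3 with dis-3(L75Q). All 4 kept an unadjusted exact permutation p under 0.05 with any 1 library left out and without the 3 libraries that lay apart. Stage and genotype cannot be told apart without those 3 libraries.

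**Figure D2:**
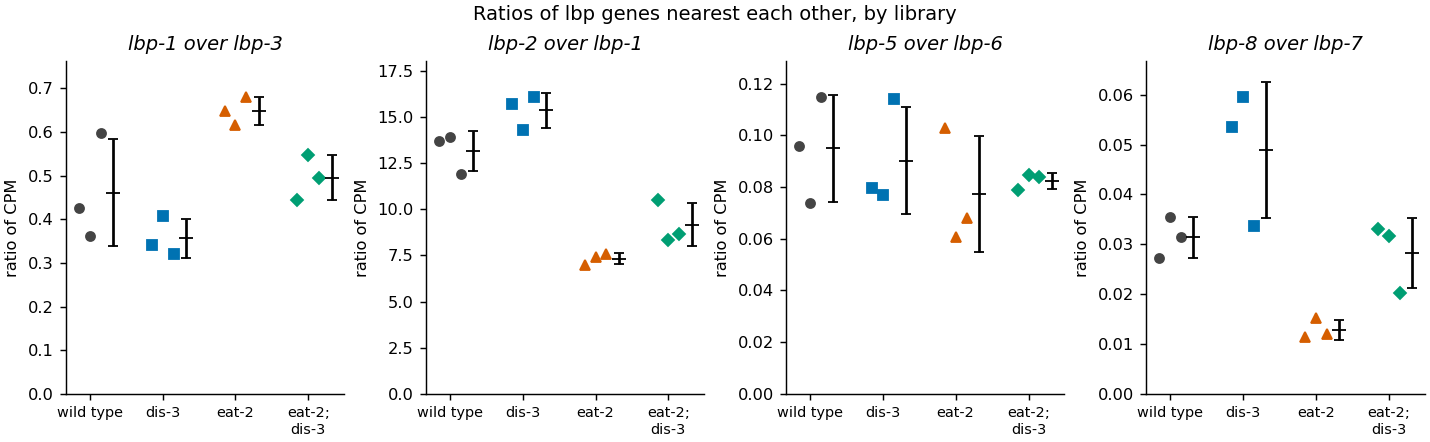
Ratio of CPM between lbp genes nearest each other (linear axes from 0) in each library, by genotype, with the mean ± SD (n = 3) as an error bar beside the points. For lbp-2 over lbp-1 the 6 libraries with eat-2(ad1116) all lie below the 6 without it, and for lbp-5 over lbp-6 the genotypes overlap.

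Among the other members, lbp-8 had the largest fold differences. It was measured at 45, 53 and 58 counts in wild type (1.43, 1.68 and 1.77 CPM), at 92, 107 and 75 counts with dis-3(L75Q) alone (3.04, 3.5 and 2.45 CPM), at 20, 23 and 19 counts with eat-2(ad1116) alone (0.547, 0.721 and 0.591 CPM), and at 67, 72 and 41 counts with both alleles (2.04, 2.12 and 1.23 CPM). The dis-3(L75Q) libraries were all above wild type and the eat-2(ad1116) libraries all below it, while the double mutant overlapped wild type. In eat-2(ad1116) against wild type lbp-8 fell 2.61-fold (log2 -1.39 ± 0.27, edgeR adjusted p = 0.0156). In the double mutant compared with eat-2(ad1116) it rose 2.89-fold (log2 1.53 ± 0.27, adjusted p = 0.0439). These 2 comparisons share the eat-2(ad1116) libraries and so are not independent of each other.

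The lbp-8 level in dis-3(L75Q) was 1.84 times that of wild type, which did not pass the test (log2 0.88 ± 0.25, adjusted p = 0.223). Averaged over both eat-2 backgrounds, lbp-8 was 2.31-fold higher with dis-3(L75Q) (log2 1.21 ± 0.18, adjusted p = 0.00908). Averaged over both dis-3 backgrounds, it was 2.09-fold lower with eat-2(ad1116) (log2 -1.06 ± 0.18, adjusted p = 0.00558). In the double mutant, which carries both alleles, lbp-8 differed from wild type by log2 0.14 ± 0.25 (approximate 95% interval -0.35 to 0.64). The interaction of the alleles was log2 0.65 ± 0.36 (interval -0.06 to 1.36) and was not called (adjusted p = 0.522). Both averaged effects were called in all 21 alternative fits, among them the fit without the 3 libraries that lay apart. That fit called 22.1% of all genes for the averaged dis-3(L75Q) effect and 42.3% for the averaged eat-2(ad1116) effect. The single comparisons were less stable at these counts. The fall in eat-2(ad1116) was lost without eat-2(ad1116) replicate 3 (adjusted p = 0.0687) or wild type replicate 3 (adjusted p = 0.0612), and when only the 2 genotypes were fitted (adjusted p = 0.107). The rise in the double mutant over eat-2(ad1116) was called in 2 of the 12 fits with 1 library left out, those without dis-3(L75Q) replicate 3 or double mutant replicate 3, and lost in the other 10 (adjusted p up to 0.27) and with limma-voom (adjusted p = 0.109).

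The same directions were seen for lbp-5, at a smaller size. Its levels were 54.3, 45.5 and 54.5 CPM in wild type, 69.6, 63.3 and 73.8 with dis-3(L75Q) alone, 36.8, 36.2 and 41.8 with eat-2(ad1116) alone, and 56.5, 62.6 and 54.9 with both alleles. Neither single mutant overlapped wild type, and the lowest double mutant library was just above the highest wild-type library. It fell 1.34-fold in eat-2(ad1116) against wild type (log2 -0.43 ± 0.11, adjusted p = 0.0423) and rose 1.52-fold in the double mutant compared with eat-2(ad1116) (log2 0.60 ± 0.11, adjusted p = 0.0496). Its level in dis-3(L75Q) was 1.34 times that of wild type, which did not pass edgeR's test (log2 0.42 ± 0.11, adjusted p = 0.159). The averaged dis-3(L75Q) effect on lbp-5 was log2 0.51 ± 0.08 (adjusted p = 0.00795) and the averaged eat-2(ad1116) effect was log2 -0.34 ± 0.08 (adjusted p = 0.0195).

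For lbp-5 the averaged dis-3(L75Q) effect was called in all 21 alternative fits, with adjusted p up to 0.0387. The averaged eat-2(ad1116) effect was lost without scaling beyond library totals (adjusted p = 0.0961) and without eat-2(ad1116) replicate 2, double mutant replicate 1 or 3, or wild type replicate 1 (adjusted p up to 0.0613). The fall in the eat-2(ad1116) single mutant was called only in the fits that left out dis-3(L75Q) replicate 3, eat-2(ad1116) replicate 1 or wild type replicate 2 among the 12 that each left out 1 library, and it was lost in the other 9 (adjusted p up to 0.18). It was also lost with the stage score as a covariate (log2 -0.33, adjusted p = 0.16). The rise in the double mutant over eat-2(ad1116) was called in 1 of those 12 fits, the one without wild type replicate 2, with adjusted p up to 0.37 in the others, and was lost with limma-voom (adjusted p = 0.0551).

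The lbp gene nearest to lbp-8 on chromosome V, lbp-7, stood at 52.3, 47.2 and 56.3 CPM in wild type, 56.8, 58.7 and 72.7 with dis-3(L75Q) alone, 48.5, 47.6 and 49.4 with eat-2(ad1116) alone, and 61.9, 67.1 and 60.7 with both alleles. All 6 libraries with dis-3(L75Q) were above all 6 without it, by a small margin. It was not called for dis-3(L75Q) against wild type (log2 0.27 ± 0.11, adjusted p = 0.294), in the double mutant compared with eat-2(ad1116) (log2 0.38 ± 0.11, adjusted p = 0.388) or averaged over both backgrounds (log2 0.33 ± 0.08, adjusted p = 0.0875). The averaged effect on lbp-7 was called with DESeq2 (log2 0.30, adjusted p = 0.0313, where 2.72% of all genes were called), with the stage score in the fit (log2 0.40, adjusted p = 0.00672, 1.7% of all genes) and without the 3 libraries that lay apart (log2 0.24, adjusted p = 0.011, 22.1% of all genes). Without those 3 libraries lbp-7 was also called in the double mutant compared with eat-2(ad1116) (log2 0.36, adjusted p = 0.00514, 25.3% of all genes). The ratio of lbp-8 to lbp-7 was 0.0314 ± 0.0041 in wild type, 0.0489 ± 0.014 with dis-3(L75Q) alone, 0.0128 ± 0.0021 with eat-2(ad1116) alone and 0.0282 ± 0.007 with both alleles. The ratio was higher with dis-3(L75Q) by log2 0.86 (exact permutation p = 0.01, adjusted 0.016) and lower with eat-2(ad1116), at log2 -1.04 (exact permutation p = 0.005, adjusted 0.01).

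**Figure D3:**
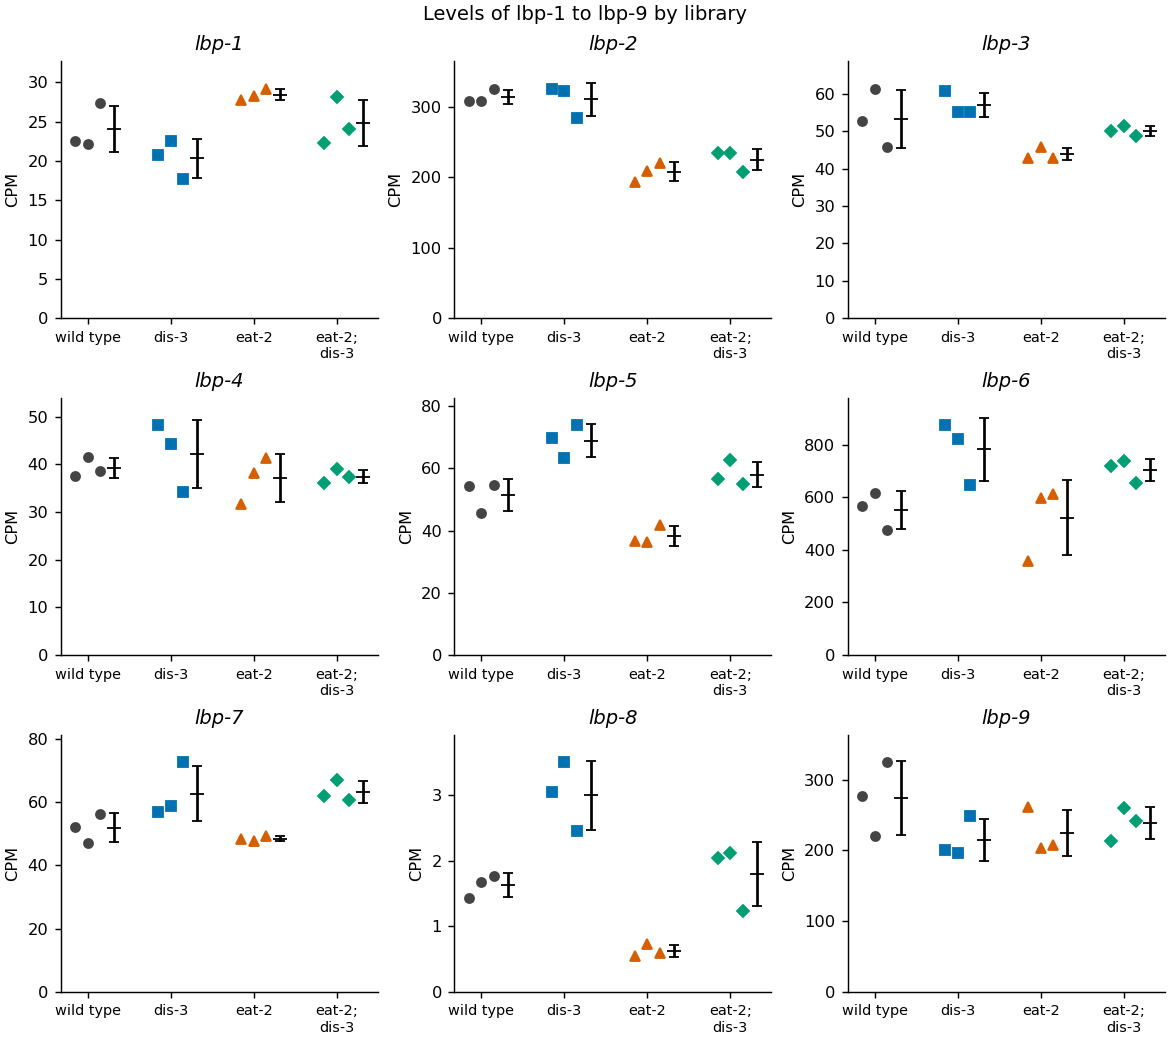
Level of each of the 9 lbp genes in CPM (linear axes from 0) in every library, by genotype, with the mean ± SD (n = 3) as an error bar beside the points. The lbp-2 points are lower in both genotypes with eat-2(ad1116). Those of lbp-8 and lbp-5 are lowest in the eat-2(ad1116) single mutant and highest in dis-3(L75Q). For lbp-6 and lbp-7 the points of both genotypes with dis-3(L75Q) lie above all the others, and for lbp-4 and lbp-9 the genotypes overlap.

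The most abundant member, lbp-6, was measured at 565, 616 and 475 CPM in wild type, 873, 823 and 648 with dis-3(L75Q) alone, 357, 596 and 613 with eat-2(ad1116) alone, and 717, 738 and 655 with both alleles. The dis-3(L75Q) and double mutant libraries were all above those of wild type and of eat-2(ad1116), yet no comparison passed the test (log2 0.50 ± 0.20, adjusted p = 0.294 for dis-3(L75Q) against wild type). The libraries that lay apart on the stage score were also the extreme libraries of their genotypes for lbp-6. Wild type replicate 2 was the highest of its group, while replicate 3 of dis-3(L75Q) and replicate 1 of eat-2(ad1116) were the lowest of theirs. The within-genotype SD on the log2 scale was 0.27 for lbp-6 and 0.12 for the nearby lbp-5. The ratio of lbp-5 to lbp-6 differed by log2 0.03 with dis-3(L75Q) (exact permutation p = 0.86) and by log2 -0.21 with eat-2(ad1116) (exact permutation p = 0.26).

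The order was the reverse for lbp-9, which was measured at 277, 220 and 325 CPM in wild type, 200, 196 and 249 with dis-3(L75Q) alone, 262, 204 and 207 with eat-2(ad1116) alone, and 214, 260 and 242 with both alleles. Here wild type replicate 2 was the lowest of its group, while replicate 3 of dis-3(L75Q) and replicate 1 of eat-2(ad1116) were the highest of theirs. The groups overlapped in each comparison, and lbp-9 was not called (log2 -0.35 ± 0.16, adjusted p = 0.297 for dis-3(L75Q) against wild type). The remaining member, lbp-4, lay at 39.2 ± 2.1, 42.2 ± 7.2, 37.1 ± 5.0 and 37.5 ± 1.4 CPM in wild type, dis-3(L75Q), eat-2(ad1116) and the double mutant. It overlapped in each comparison and was not called in any.

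Within genotypes, the members differed in how they went with the stage score. Over the 12 libraries with genotype means removed, log2 CPM changed per unit of the score by -0.13 for lbp-9 (r = -0.95), 0.15 for lbp-6 (r = 0.89) and 0.09 for lbp-4 (r = 0.82). The values were 0.05 for lbp-3 (r = 0.72) and -0.06 for lbp-7 (r = -0.72), and between -0.03 and 0.07 for lbp-2, lbp-5, lbp-8 and lbp-1 (r = 0.5, -0.43, 0.39 and 0.01). These are descriptions over libraries that share genotype and depth. The 3 members called in eat-2(ad1116) were among the 4 with the smallest r in size. By slope, lbp-8 at 0.07 was steeper in size than lbp-3 at 0.05 and lbp-7 at -0.06. The part of stage in these calls cannot be read from r.

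When the stage score entered the fit as a covariate, the dis-3(L75Q) difference of lbp-6 against wild type went from log2 0.50 to 0.06, and that of lbp-9 from log2 -0.35 to 0.02. In eat-2(ad1116) against wild type the covariate moved lbp-6 from log2 -0.08 to -0.55 (adjusted p = 0.0391) and lbp-3 to log2 -0.43 (adjusted p = 0.0289), so that both were called lower, where 4.99% of all genes were called. The covariate moved lbp-6 in the double mutant compared with eat-2(ad1116) to log2 0.51 (adjusted p = 0.0395, 1.05% of all genes). Without the 3 libraries that lay apart, lbp-6 was instead at log2 0.73 in dis-3(L75Q) against wild type (adjusted p = 7.96e-05) and at 0.22 in the eat-2 single mutant (adjusted p = 0.0554), and lbp-9 was at -0.58 and -0.55 (adjusted p = 0.000768 and 0.000808). That fit called 51.9% and 58.9% of all genes in these comparisons. The 2 treatments of stage thus gave opposite directions for lbp-6 in eat-2(ad1116).

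**Figure D4:**
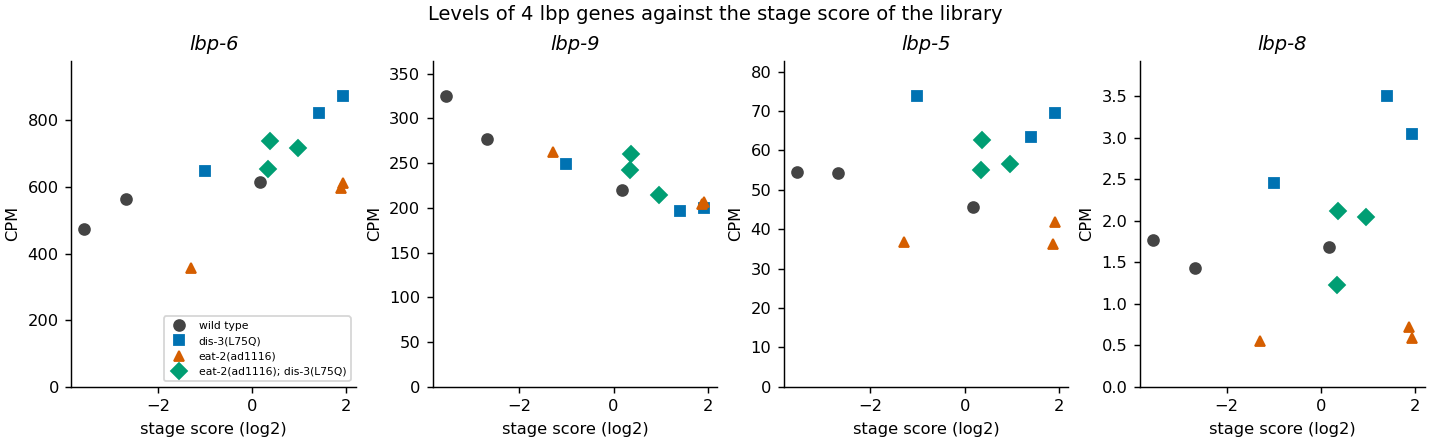
Level in CPM against the stage score of each library (molting minus oocyte genes, log2 units) for lbp-6, lbp-9, lbp-5 and lbp-8, coloured by genotype. Within genotypes lbp-6 is higher and lbp-9 lower in libraries of higher score, while lbp-5 and lbp-8 show a weaker relation (r = -0.43 and 0.39).

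The counts over the family can be set beside those over all genes tested. In eat-2(ad1116) against wild type 3 of 9 members were called, all lower (lbp-2, lbp-5 and lbp-8), where 2.12% of all genes were called lower and 6.21% in either direction. The median log2 difference of the 9 was -0.28, against -0.01 for all genes. Groups did not overlap for 4 members that were lower (9.52% of all genes) and for 1 that was higher (12.1% of all genes). Between the double mutant and eat-2(ad1116) 2 of 9 were called, both higher in the double mutant (lbp-5 and lbp-8), where 0.154% of all genes were called higher and 0.351% in either direction. Groups did not overlap for 5 of 9, all higher (7.68% of all genes).

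In dis-3(L75Q) against wild type edgeR called 0 of 9, where 0.56% of all genes were called. At an unadjusted p under 0.05 there were 4 of 9 (lbp-5, lbp-6, lbp-7 and lbp-8). The share of all genes at that unadjusted threshold is not given here. The same 4 were higher with no overlap between groups, which held for 9.38% of all genes. DESeq2 called 1 (lbp-5), with 2.08% of all genes, and limma-voom 0, with 0.535%. In the double mutant against dis-3(L75Q) 1 of 9 was called (lbp-2), where 0.695% of all genes were called lower and 1.24% in either direction, and 4 of 9 were lower with no overlap (11.0% of all genes). In the double mutant against wild type 1 of 9 was called (lbp-2), where 1.74% of all genes were called lower and 4.28% in either direction. There 3 of 9 were higher with no overlap (20.4% of all genes) and 1 was lower (16.9% of all genes). Averaged over backgrounds, the dis-3(L75Q) effect was called for 2 of 9 members, both higher (0.609% of all genes higher, 1.0% in either direction), and the eat-2(ad1116) effect for 3 of 9, all lower (4.34% of all genes lower, 9.76% in either direction). Comparisons that share a genotype share its libraries.

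No member had a called interaction between the alleles. edgeR called 0 of 9, where it called 0.0615% of all genes, and 0 of 9 had an unadjusted p under 0.05. Both DESeq2 and limma-voom also called 0, with 0.32% and 0.0369% of all genes. The widest interval was that of lbp-8, given above, and that of lbp-2 ran from -0.11 to 0.38. Without the 3 libraries that lay apart, interactions were called for lbp-4, lbp-6 and lbp-9 (log2 -0.41, -0.54 and 0.77). In that fit 53.4% of all genes were called for the interaction.

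**Figure D5:**
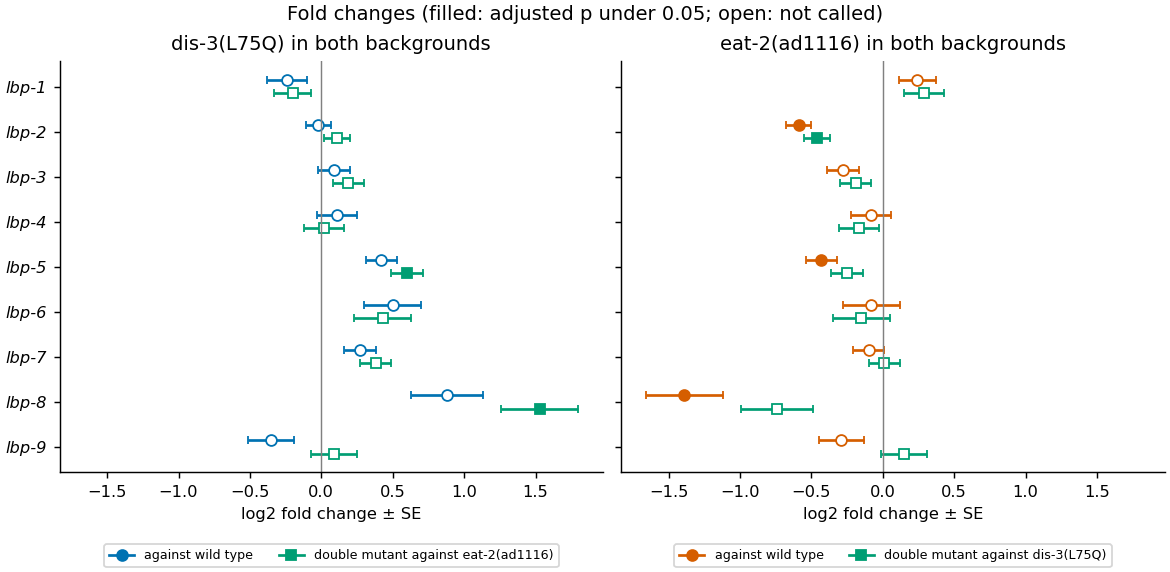
log2 fold change ± SE of each lbp gene for dis-3(L75Q) in both eat-2 backgrounds (left) and for eat-2(ad1116) in both dis-3 backgrounds (right), with filled points where the adjusted p was under 0.05. For lbp-8 and lbp-5 the dis-3(L75Q) points lie above 0 and the eat-2(ad1116) points below 0, and for lbp-2 the eat-2(ad1116) points alone are away from 0.

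The genes around LBP-8 in the lysosomal route were read from a list of 14 that holds lysosomal lipases, NHR-49 and its partners, and desaturase targets. In eat-2(ad1116) against wild type 1 of 14 was called (6.21% of all genes), the desaturase gene fat-7, which fell (log2 -0.72 ± 0.15, adjusted p = 0.018). Of the 14, 3 were called in the double mutant compared with eat-2(ad1116), with fat-5 and fat-7 higher (log2 1.87 ± 0.17 and 2.57 ± 0.15) and fat-6 lower (log2 -1.70 ± 0.14). There 0.351% of all genes were called. For the double mutant against dis-3(L75Q) edgeR called 0 of 14, with 1 at an unadjusted p under 0.05. The sequences of fat-6 and fat-7 are alike, so their reads may be exchanged.

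The lipase gene lipl-4, upstream of LBP-8 in that route, was measured at 2.22, 3.45 and 1.52 CPM in wild type, 8.24, 6.61 and 5.64 with dis-3(L75Q) alone, 2.95, 4.04 and 4.88 with eat-2(ad1116) alone, and 7.04, 7.38 and 7.06 with both alleles. All 6 libraries with dis-3(L75Q) were above all 6 without it. It was called in the double mutant against wild type (log2 1.58 ± 0.29, adjusted p = 0.0149) and for the averaged dis-3(L75Q) effect (log2 1.18 ± 0.20, adjusted p = 0.019). In eat-2(ad1116), where lbp-8 was lowest, lipl-4 lay at 3.96 ± 0.97 CPM against 2.4 ± 0.98 in wild type. The receptor gene nhr-49 lay at 33.7 ± 1.4, 36.8 ± 2.5, 39.5 ± 5.0 and 41.1 ± 4.6 CPM in wild type, dis-3(L75Q), eat-2(ad1116) and the double mutant, and its partner nhr-80 at 18.8 ± 1.1, 23.3 ± 3.1, 22.5 ± 3.7 and 23.8 ± 1.9. Neither was called in any comparison. Against wild type the double mutant had 4 of 14 called (4.28% of all genes), with fat-5, fat-7 and lipl-4 higher and fat-6 lower. For the averaged effects 4 of 14 were called with dis-3(L75Q) (1.0% of all genes), again fat-5, fat-7 and lipl-4 higher and fat-6 lower. With eat-2(ad1116) 2 of 14 were called (9.76% of all genes), the lipase gene lipl-5 higher (log2 0.28 ± 0.07) and fat-7 lower (log2 -0.59 ± 0.10).

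Other lipid lists had called members too. Of the far genes, which encode secreted fatty acid and retinol-binding proteins of nematodes, 7 of 8 were tested. In eat-2(ad1116) against wild type, 1 of 7 far, 1 of 6 acyl-CoA-binding and 3 of 10 extracellular transport genes were called. The lbp count there was 3 of 9, and 6.21% of all genes were called. For the averaged eat-2(ad1116) effect the counts were 2 of 7, 2 of 6 and 5 of 10. The lbp count there was also 3 of 9, with 9.76% of all genes. In eat-2(ad1116) against wild type 1 of 7 was called, far-2, which fell from 1617 ± 68 to 1200 ± 108 CPM (log2 -0.43 ± 0.09, adjusted p = 0.0186). Averaged over both backgrounds the eat-2(ad1116) effect was called for far-2 (log2 -0.35 ± 0.06) and far-6 (log2 -0.28 ± 0.06), both lower. Of 6 acyl-CoA-binding protein genes, acbp-6 fell in eat-2(ad1116) against wild type, from 3.9 ± 0.97 to 1.88 ± 0.40 CPM (log2 -1.05 ± 0.24, adjusted p = 0.0308), and in the double mutant against wild type (log2 -1.13 ± 0.24, adjusted p = 0.028). The averaged eat-2(ad1116) effect was called for acbp-6 (log2 -0.84 ± 0.17) and acbp-1 (log2 -0.35 ± 0.09).

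Of 10 genes of extracellular lipid transport, 3 yolk protein genes fell in eat-2(ad1116) against wild type: vit-1, vit-3 and vit-4 (log2 -3.87 ± 0.72, -4.72 ± 1.10 and -4.27 ± 1.09). Levels varied widely within genotypes, for vit-3 from 277 to 742 CPM in wild type and from 3.05 to 57.1 in eat-2(ad1116). Wild type also had the lowest mean stage score, and rme-2 is on both this list and the oocyte list of that score. The part of stage in these falls was not tested. The vit-3 and vit-4 genes are also alike in sequence. Of the 3 yolk protein genes, vit-1 alone was called in the double mutant against wild type (log2 -3.61 ± 0.71). The averaged eat-2(ad1116) effect was called for vit-1, vit-3, vit-4 and vit-5, all lower, and for the sterol transporter gene ncr-1, which was higher (log2 0.48 ± 0.11). Comparing the double mutant with eat-2(ad1116), edgeR called 0 of the far, 0 of the acyl-CoA-binding and 0 of the transport genes, with 1, 0 and 0 at an unadjusted p under 0.05. Against dis-3(L75Q) it called 0 of each, with 3, 2 and 5 at an unadjusted p under 0.05.

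Members were compared with one another and with other genes by the correlation of log2 CPM over the 12 libraries, as a description of libraries that share genotype and depth. Within the family the highest value was that of lbp-5 with lbp-8 (r = 0.9), followed by lbp-5 with lbp-7 (r = 0.85). The lowest was that of the neighbours lbp-1 and lbp-3 (r = -0.77). The genes most like each member were sought among 6482 others that carried a gene-class name and averaged 5 CPM or more. For lbp-8, which lay below that level, none was sought.

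For lbp-2 the closest were pbs-3, nap-1 and spp-4 (r = 0.98 each, and 0.72, 0.68 and 0.76 within genotypes). For lbp-3 they were cpr-6, ttr-48 and cest-25 (r = 0.97, 0.96 and 0.93, and 0.94, 0.92 and 0.81 within genotypes). For lbp-1 they were inx-3, fbxa-107 and srp-7 (r = 0.95, 0.85 and 0.85, and 0.88, 0.68 and 0.57 within genotypes). Close companions within genotypes were seen for members that went with the stage score and also for lbp-1 (r = 0.01 with the score). For lbp-6 these were asp-3, acs-5 and mel-32 (r = 0.97, 0.97 and 0.96, and 0.98, 0.97 and 0.97 within genotypes), and for lbp-9 pssy-2, immt-2 and his-45 (r = 0.98, 0.97 and 0.97, and 0.98, 0.97 and 0.97 within genotypes). For lbp-4 they were tald-1, let-767 and ddp-1 (r = 0.94, 0.93 and 0.93, and 0.96, 0.94 and 0.97 within genotypes). For lbp-7 they were tre-5, pph-7 and cest-24 (r = 0.92, 0.91 and 0.91, and 0.77, 0.72 and 0.77 within genotypes). For lbp-5 the closest were obr-1, txt-17 and fat-7 (r = 0.88, 0.87 and 0.87). Within genotypes the values for lbp-5 were 0.14, 0.57 and -0.39, so its likeness to obr-1 and fat-7 lay between genotypes and not among replicates.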

How the data were processed

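Each deposited file gives an expected count for every gene, an estimated fragment number with no scaling for depth or length, per the file headers. STAR 2.7.0e, RSEM 1.3.1 and the builds WBcel235 and ce11 are named in the submitters' processing notes. Trimming, RNA selection and strand use were not given in the sources used. All 108 of 108 lbp values were exactly whole (tolerance 0), and all counts were rounded. Of 46934 entries, 46924 matched Ensembl release 115 by identifier. Exon lengths and 1-based coordinates come from that annotation of WBcel235.

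The test was that of edgeR 4.0.16 under R 4.3.3 (robust quasi-likelihood F test, TMM scaling with factors of 0.9282 to 1.139, filterByExpr by genotype, 12 libraries in 1 fit with genotype as the only term), and genes were called at a two-sided Benjamini-Hochberg adjusted p under 0.05 over 16259 genes. Alternatives were DESeq2 1.42.0, limma-voom (limma 3.58.1), other scalings and filters, the compared genotypes alone, a replicate block, the stage score as a covariate, and libraries left out. Intervals are the estimate ± 1.96 SE, an approximation to 95% that is narrower than the F test implies. For lbp-6 in the double mutant compared with eat-2(ad1116), the interval was 0.04 to 0.81 with an unadjusted edgeR p of 0.052. The code was checked on simulated counts. No 2 libraries of a genotype were alike within sampling noise. The labels state independent harvests.

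The members, gene lists and tests were chosen with earlier results of these data known. The named genes are the 9 members, each called member of 4 lipid lists in comparisons in which an lbp gene was called, and the 3 most correlated genes of each member. The averaged effects and the ratio tests were added after the values were seen. Of the marker and lipid lists, opt-2 and trp-3 had no match by symbol. Of the other marker lists, edgeR called 3 of 10 neuron genes in eat-2(ad1116) against wild type, all higher, where 6.21% of all genes were called. All 10 were above 0 there, and 8 had an unadjusted p under 0.05. For epidermis, body wall muscle, sperm and germline it called 0 genes in any comparison of 2 genotypes. Up to 3, 0, 0 and 2 genes of these lists had an unadjusted p under 0.05.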

Additional observations from a re-analysis of the deposited data

How the results depend on the processing

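No called lbp value changed sign under any alternative, and 86 of 1557 values had the other sign where neither fit called them. The 3 calls in eat-2(ad1116) against wild type became 1 at an adjusted p under 0.01 and 0 with only the 2 genotypes compared. The 2 calls in the double mutant compared with eat-2(ad1116) became 0 at an adjusted p under 0.01, with DESeq2-type size factors, limma-voom, no filter, a stricter filter, only the 2 genotypes or the replicate block, and 1 without scaling. The 1 call in the double mutant against dis-3(L75Q) became 0 at an adjusted p under 0.01, without scaling, with only the 2 genotypes or with the replicate block, and that against wild type became 0 at an adjusted p under 0.01. With the stage score as a covariate, 2 members were called in the double mutant against wild type and 6 for the averaged eat-2(ad1116) effect, where 4.35% and 15.7% of all genes were called. For dis-3(L75Q) against wild type DESeq2 called 1 (2.08% of all genes), where edgeR called 0. Without the 3 libraries apart on the stage score, calls were 6 in dis-3(L75Q) against wild type, 5 in the double mutant against dis-3(L75Q), 4 in the double mutant against wild type, 3 for the interaction and 5 for the averaged dis-3(L75Q) effect. That fit called 51.9%, 25.2%, 47.2%, 53.4% and 22.1% of all genes in the same order. The cause was not tested.

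Leaving out 1 library at a time gave 0 to 0 calls in dis-3(L75Q) against wild type, 1 to 3 in eat-2(ad1116) against wild type, and 0 to 1 in each comparison of the double mutant. It gave 0 to 0 for the interaction, 2 to 2 for the averaged dis-3(L75Q) effect and 2 to 4 for the averaged eat-2(ad1116) effect. Without scaling the median of all genes moved from log2 0.05 to 0.16 in the double mutant against dis-3(L75Q). With genotype means removed, the log2 CPM of same-numbered libraries of different genotypes correlated at -0.626 to 0.424. Differently numbered pairs correlated at -0.606 to 0.703. Whether same-numbered libraries shared a batch cannot be read from these values. With the replicate block calls were 2 in eat-2(ad1116) against wild type (lbp-2 and lbp-8), 0 in the double mutant against either single mutant, 1 against wild type, and 2 and 3 for the averaged effects. The interaction could not be fitted with only 2 genotypes. At 19 to 107 counts, lbp-8 is the member limited by depth.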
